A study of Mus musculus with 24 samples.

Results

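Hydroxysteroid dehydrogenases oxidise or reduce hydroxyl and keto groups of steroids, and several members of the family act on fatty acyl-CoAs or retinoids instead. In liver they set the local activity of glucocorticoids, androgens and estrogens, and they take part in fatty acid elongation, mitochondrial acyl-CoA breakdown and the protein coat of lipid droplets. The 10 genes described here, Hsd3b2, Hsd3b3, Hsd3b5, Hsd11b1, Hsd17b2, Hsd17b6, Hsd17b10, Hsd17b11, Hsd17b12 and Hsd17b13, are part of a mouse liver expression table of 15582 genes. They were chosen with earlier results of these data known, so counts of calls among them are not those of a blind choice. Hsd17b4, Hsd17b7 and Hsd3b7, with like names, are not among the 10 and are given separately below. All 10 reached 0.5 RPKM (reads scaled to transcript length and to the number of mapped reads) in at least 6 libraries, as did 6540 genes in all, and only those were tested.

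The livers came from male B6C3F1 mice aged 4 weeks whose drinking water held dichloroacetic acid (DCA), which forms when water is chlorinated and blocks pyruvate dehydrogenase kinase. Control animals received 0 g/L, and the treated groups received 1, 2 or 3.5 g/L for 6 days, with 6 libraries per dose. Each library was made from ribosomal RNA-depleted total RNA of about the same mass of frozen liver of mixed lobes, so a gene's level averages over all cells of the piece, and fewer cells of a type cannot be told apart from less RNA per cell. The labels do not say that each library is 1 animal, and p-values therefore cover only the spread between libraries. The titles hold a further tag, L1, L2 or L3, which the labels do not explain: all controls were L1, the 1 g/L libraries were 3 L1 and 3 L2, all 2 g/L libraries were L2 and all 3.5 g/L libraries were L3. At 3.5 g/L the tag and the dose therefore cannot be told apart. Controls and 2 g/L libraries share no tag either, and only the 1 g/L libraries link L1 and L2.

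Relative depth, read from the steps between low RPKM values, ranged from 0.94 to 1.12 over the 24 libraries, at about 25000000 reads each. Hepatocyte markers were all tested, 10 of 10, and their summed level ran from 26131 to 32879 RPKM in controls, 23604 to 28966 at 1 g/L, 19204 to 29085 at 2 g/L and 19799 to 25205 at 3.5 g/L. Of these markers 2 fell at 1 g/L and 6 fell at 2 g/L, while 7 fell and 1 rose at 3.5 g/L. Kupffer cell markers showed no call at 1 or 2 g/L, and 9 of 10 fell at 3.5 g/L, to sums of 61.9 to 85.4 RPKM against 95.5 to 139 RPKM in controls. Of 7 erythroid markers 7 fell at 2 g/L and 5 at 3.5 g/L, while of 7 endothelial and 7 stellate cell markers no gene of either list fell at any dose. In these lists 1 endothelial marker rose at 1 g/L, and 1 stellate cell marker rose at 2 g/L and 1 at 3.5 g/L. Of 9 markers of adrenal and gonadal steroid-making cells, 7 stayed at or below 0.253 RPKM, with Cyp19a1 and Nr5a1 at 0 in every library. The 2 tested ones were Fdx1, at 6.14 to 10.3 RPKM, and Cyp17a1, at 0.277 to 6.74 RPKM, and neither passed at any dose. The summed level of the 9 was 9.07 to 11.1 RPKM at 1 g/L, 8.76 to 13.5 RPKM at 2 g/L and 8.84 to 15.1 RPKM at 3.5 g/L, against 7.96 to 12.97 RPKM in controls. The part of these cell markers in the results below was not tested. Between treated and control libraries limma, with Benjamini-Hochberg adjustment over all 6540 genes, called 11.4%, 51.9% and 51.5% of genes at 1, 2 and 3.5 g/L. The median log2 fold of all genes was 0.12 at 2 g/L and 0.10 at 3.5 g/L. Scaling the libraries by median ratios changed the balance of rises and falls to 233 and 340 genes at 1 g/L, where the deposited scale gave 546 and 198, to 1392 and 1377 genes at 2 g/L, where it gave 2738 and 657, and to 1538 and 1525 genes at 3.5 g/L, where it gave 2525 and 843.

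The 10 genes moved apart with dose. Against control, 2 rose and 0 fell at 1 g/L, 5 rose and 2 fell at 2 g/L, and 4 rose and 4 fell at 3.5 g/L. The 2 of 10 called at 1 g/L stand beside 11.4% of all tested genes, of which 8.35% rose and 3.03% fell. The 7 of 10 at 2 g/L stand beside 51.9%, of which 41.9% rose and 10% fell, and the 8 of 10 at 3.5 g/L beside 51.5%, of which 38.6% rose and 12.9% fell. For 2 against 1 g/L 4 rose and 4 fell, and the 8 of 10 called stand beside 28.4% of all genes, of which 22.7% rose and 5.63% fell. For 3.5 against 2 g/L 0 rose and 3 fell, and the 3 of 10 called stand beside 10.3%, of which 4.79% rose and 5.54% fell. A linear slope over the 4 doses was called for 8 genes, all but Hsd17b2 and Hsd17b6, 4 up and 4 down, beside 50.6% of all genes, of which 38% rose and 12.6% fell. Libraries of the treated and control groups did not overlap for 1, 5 and 4 of the 10 genes at 1, 2 and 3.5 g/L, beside 4.62%, 23.3% and 27.9% of all tested genes. For 2 against 1 g/L the number was 5, beside 11.2%, and for 3.5 against 2 g/L it was 0, beside 4.13%. Under median-ratio scaling 1 gene rose and 0 fell at 1 g/L, 4 rose and 5 fell at 2 g/L, and 3 rose and 5 fell at 3.5 g/L, beside 8.76%, 42.3% and 46.8% of all genes called with that scaling. The median log2 fold of the 10 genes was 0.18, 0.10 and -0.04 at 1, 2 and 3.5 g/L, where that of all genes was 0.05, 0.12 and 0.10. Within title tag L1, where 3 libraries at 1 g/L meet 6 controls, 0 of the 10 genes were called, beside 0.817% of all genes tested there. With the tag as a term, in a fit that drops the 3.5 g/L libraries, 3 rose and 2 fell at 2 g/L, beside 13.3% of all genes called in it.

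**Figure D1:**
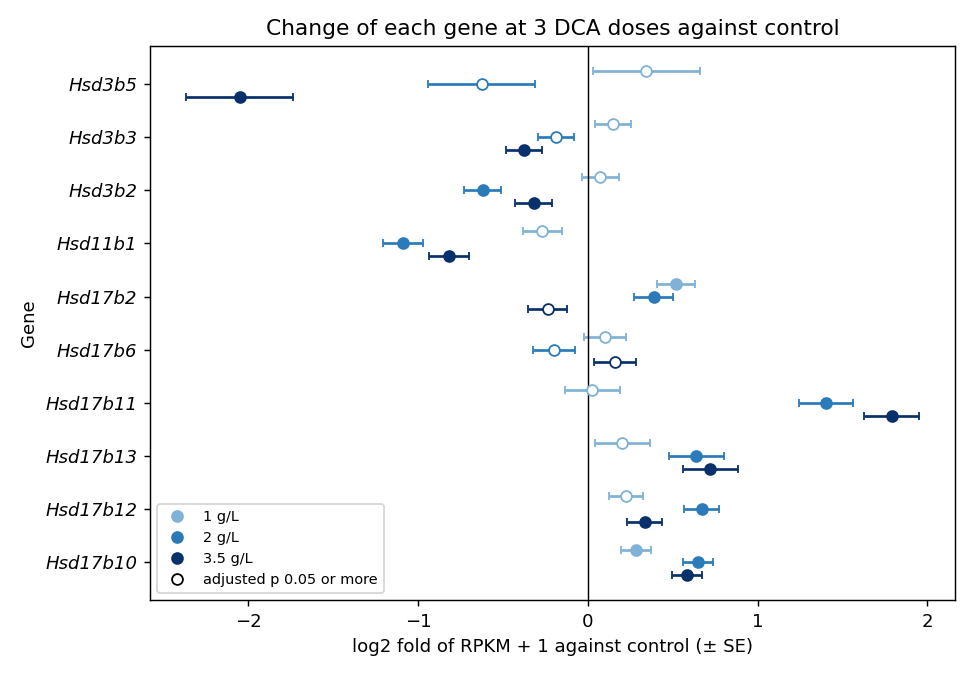
Log2 fold of RPKM + 1 against control for each gene at 1, 2 and 3.5 g/L DCA (points, with SE bars; filled where the adjusted p is below 0.05, 6 libraries per dose). Hsd3b5 at 3.5 g/L is farthest to the left at -2.05 and Hsd17b11 at 3.5 g/L farthest to the right at 1.79, while the points of Hsd17b6 are all open.

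The order of levels changed as well, on the RPKM scale. RPKM divides by a gene length that the sources used here do not give, so a comparison between genes rests on that length. In controls Hsd11b1 was highest at 149 ± 13.5 RPKM (SD, n = 6) and its libraries did not overlap those of Hsd3b5, next at 98.1 ± 13.3 RPKM, whose lowest library lay just below the highest of Hsd3b3. Hsd3b3 at 70.8 ± 8.94 RPKM and Hsd17b2 at 70.2 ± 7.80 RPKM overlapped each other and stood apart from Hsd17b6, Hsd17b10, Hsd17b12 and Hsd17b13, which lay between 30.6 and 36.3 RPKM on average and overlapped in turn. Hsd17b11 came ninth at 21.4 ± 3.21 RPKM and Hsd3b2 last at 11.6 ± 1.81 RPKM. At 3.5 g/L Hsd11b1 was still highest at 84.9 ± 12.7 RPKM, but Hsd17b11 was next at 76.4 ± 12.7 RPKM and overlapped it. Hsd3b5 was ninth there at 27.5 ± 17.3 RPKM, and from the highest gene down each gene overlapped the next in order.

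**Figure D2:**
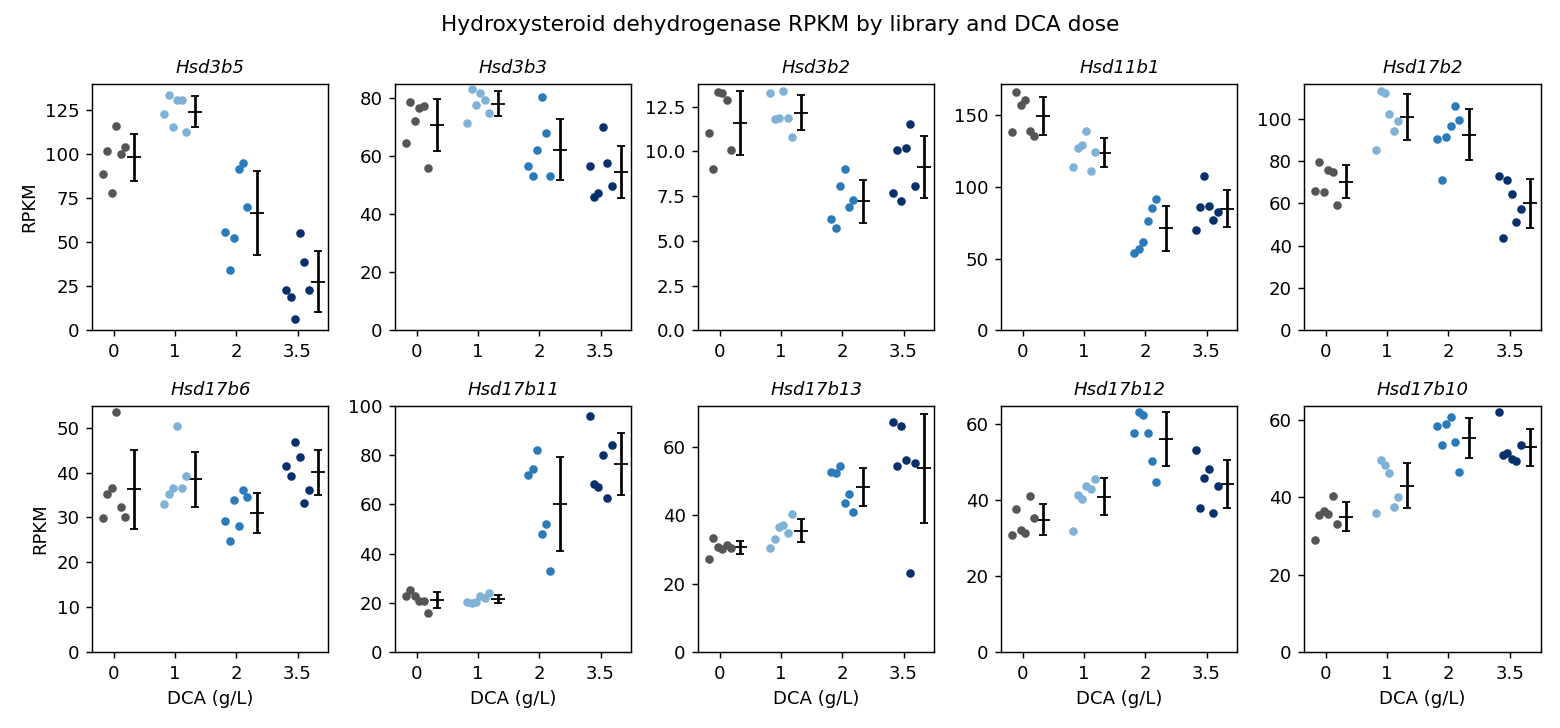
RPKM of each gene in every library (points) by DCA dose in g/L, with the mean and SD of 6 libraries beside each group; each panel has its own RPKM axis, starting at 0. Hsd17b11 libraries at 2 and 3.5 g/L, 32.9 to 96.1 RPKM, all lie above the controls, and Hsd3b5 libraries at 3.5 g/L, 6.15 to 55.5 RPKM, all lie below them.

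The Hsd3b enzymes form a gene cluster on chromosome 3. Hsd3b2 and Hsd3b3 encode 3-beta-hydroxysteroid dehydrogenase/isomerases, which turn delta-5 steroids into delta-4 ketosteroids, whereas mouse Hsd3b5 encodes a NADPH-dependent 3-ketosteroid reductase made mainly in male liver. In GRCm38 coordinates of GENCODE M21, all on the minus strand, Hsd3b5 spans chr3:98618634-98630252, Hsd3b2 chr3:98709255-98724543 and Hsd3b3 chr3:98741523-98763127. All of them overlap Zfp697, which is annotated on the opposite strand, and the use of strand in the counting was not given in the sources used here. Their transcripts are alike: Hsd3b2 and Hsd3b3 were 93.9% identical over the aligned bases, Hsd3b3 and Hsd3b5 78.4%, and Hsd3b2 and Hsd3b5 78.6%. Of the 50-base windows of the longest coding transcript, 25.5% in Hsd3b2, 28.7% in Hsd3b3 and 21.2% in Hsd3b5 also occurred in a transcript of another gene. Hsd3b2 and Hsd3b3 shared the most with each other, 11.1% and 27.2% of their windows, and Hsd3b5 with Gm10681, 18.2%. The split of reads between each gene and those it shares windows with is uncertain to that extent. The promoters of Hsd3b3 and Hsd3b5 are shown because the levels of this pair parted with dose. They are RefSeq sequences of GRCm38.p6 on the minus strand, from 250 bases before to 50 after the annotated start, at chr3:98763079-98763378 for Hsd3b3 and chr3:98645485-98645784 for Hsd3b5, and capitals mark CCAAT on either strand. RefSeq starts Hsd3b5 upstream of the GENCODE gene, whose end is at base 98630252.
Hsd3b3 promoter: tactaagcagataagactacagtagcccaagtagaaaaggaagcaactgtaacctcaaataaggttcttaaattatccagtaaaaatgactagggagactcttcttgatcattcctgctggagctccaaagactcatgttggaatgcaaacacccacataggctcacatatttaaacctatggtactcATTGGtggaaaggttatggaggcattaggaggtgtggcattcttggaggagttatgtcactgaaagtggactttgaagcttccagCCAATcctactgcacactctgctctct
Hsd3b5 promoter: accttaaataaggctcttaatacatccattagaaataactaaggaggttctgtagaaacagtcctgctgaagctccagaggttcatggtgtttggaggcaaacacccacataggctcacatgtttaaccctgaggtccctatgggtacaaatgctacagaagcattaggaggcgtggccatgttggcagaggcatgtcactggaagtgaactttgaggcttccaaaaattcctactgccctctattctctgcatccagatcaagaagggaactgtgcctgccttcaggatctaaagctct
The windows were 76.1% identical over 247 aligned bases. Hsd3b3 holds CCAAT at 2 places, 62 bases before the start and 23 after it, and the Hsd3b5 window holds none, while 37.4% of the 32851 RefSeq promoters have at least 1. RefSeq lists a further Hsd3b3 promoter, which also holds 2.

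Hsd3b5 fell the most of the 10 genes. Its lowest, median and highest values were 77.8, 101 and 116 RPKM in controls, 112, 127 and 134 RPKM at 1 g/L, 34.0, 62.9 and 95.2 RPKM at 2 g/L, and 6.15, 22.8 and 55.5 RPKM at 3.5 g/L. Every 3.5 g/L library was below every control, the 1 g/L libraries lay at and above the top of the control range, and the 2 g/L libraries reached from below the controls into their range. The mean was 27.5 ± 17.3 RPKM at 3.5 g/L and 98.1 ± 13.3 RPKM in controls, a log2 fold of -2.05 ± 0.31 (SE, adjusted p = 8.7e-06). Without the lowest library, replicate 99, the log2 fold was -1.70 (adjusted p = 3.4e-06). At 2 g/L the log2 fold was -0.63 ± 0.31 and missed the threshold (adjusted p = 0.098). It passed with median-ratio scaling (-0.80, adjusted p = 0.046), with only the doses compared in the fit (adjusted p = 0.025) and without 3.5 g/L replicate 99 (adjusted p = 0.023), where the fold itself was the same. The 2 g/L value missed with quantile normalization (-0.75, adjusted p = 0.063) and with the tag in the fit (-0.63, adjusted p = 0.20). Hsd3b5 also fell at 2 g/L relative to 1 g/L, by 0.97 on the log2 scale (adjusted p = 0.023), and at 3.5 g/L relative to 2 g/L, by 1.42 (adjusted p = 0.0054). The first of these calls was lost without 2 g/L replicate 74 (-0.80, adjusted p = 0.064) or 75 (-0.92, adjusted p = 0.051) and within tag L2 (-0.97, adjusted p = 0.052), and the second with only those doses in the fit (adjusted p = 0.051).

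Hsd3b3 changed less. From lowest over median to highest, it had 55.8, 74.2 and 78.5 RPKM in controls, 71.5, 78.4 and 83.1 RPKM at 1 g/L, 53.1, 59.3 and 80.3 RPKM at 2 g/L, and 46.0, 53.1 and 70.2 RPKM at 3.5 g/L. The ranges overlapped at every dose. It fell at 3.5 g/L with a log2 fold of -0.37 ± 0.11 (adjusted p = 0.0048), and at 2 g/L the log2 fold was -0.19 ± 0.11 (adjusted p = 0.14). The 2 g/L value passed with median-ratio scaling (-0.36, adjusted p = 0.0065), with quantile normalization (-0.34, adjusted p = 0.0083), and without control replicate 8 (-0.25, adjusted p = 0.045) or 2 g/L replicate 76 (-0.26, adjusted p = 0.032). It missed with the tag in the fit (-0.21, adjusted p = 0.45). Relative to 1 g/L it fell at 2 g/L by 0.34 on the log2 scale (adjusted p = 0.020), a call lost without 2 g/L replicate 74 (-0.30, adjusted p = 0.050) and within tag L2 (-0.35, adjusted p = 0.11).

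Hsd3b2, the lowest of the 10 in mean RPKM at every dose, had 9.02, 11.9 and 13.3 RPKM (lowest, median, highest) in controls, 10.8, 11.9 and 13.4 RPKM at 1 g/L, 5.72, 7.09 and 9.04 RPKM at 2 g/L, and 7.21, 9.08 and 11.5 RPKM at 3.5 g/L. It was lowest at 2 g/L, where the highest library was just above the lowest control, and averaged 9.13 ± 1.72 RPKM at 3.5 g/L. The log2 fold was -0.62 ± 0.11 at 2 g/L (adjusted p = 7.1e-05) and -0.32 ± 0.11 at 3.5 g/L (adjusted p = 0.018). The second call was lost without 3.5 g/L replicate 99 (-0.26, adjusted p = 0.055). Relative to 1 g/L it fell at 2 g/L by 0.69 (adjusted p = 6.3e-05), with no overlap. The log2 fold at 3.5 g/L relative to 2 g/L was 0.30 (adjusted p = 0.087) and passed without 2 g/L replicate 76 (adjusted p = 0.041) or 3.5 g/L replicate 99 (adjusted p = 0.049).

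Within a library, the balance between the Hsd3b genes shifted. Hsd3b5 made up 54.3 ± 4.45% of the summed RPKM of the 3 genes in controls and 57.9 ± 1.16% at 1 g/L, then 47.8 ± 7.23% at 2 g/L and 27.7 ± 10.6% at 3.5 g/L (SD, n = 6 each), where Hsd3b3 made up 61.9 ± 9.45%. The log2 ratio of Hsd3b5 to Hsd3b3 was -1.26 ± 0.91 at 3.5 g/L and 0.47 ± 0.26 in controls. No 3.5 g/L library reached the lowest control, and the difference was -1.73 (two-sided exact permutation test, p = 0.0022, the smallest the design allows, adjusted p = 0.0065 over 6 ratio comparisons). At 2 g/L the difference was -0.44 (exact permutation p = 0.056, adjusted p = 0.084) and at 1 g/L 0.20 (exact permutation p = 0.11, adjusted p = 0.11). The 2 g/L difference passed without 2 g/L replicate 77 (-0.53, exact permutation, adjusted p = 0.039) or 78 (-0.52, adjusted p = 0.049 by exact permutation), and the 1 g/L difference without control replicate 8 (0.29, adjusted p = 0.0078 by exact permutation).

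**Figure D3:**
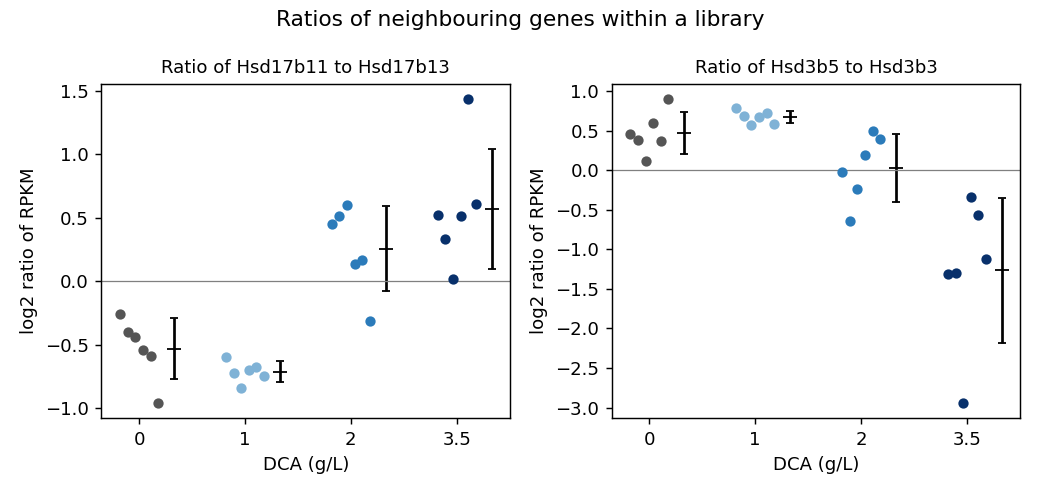
Log2 ratio of RPKM of Hsd17b11 to Hsd17b13 (left) and of Hsd3b5 to Hsd3b3 (right) in every library (points) by DCA dose in g/L, with the mean and SD of 6 libraries; the grey line marks equal levels. At 3.5 g/L every Hsd17b11 to Hsd17b13 ratio, from 0.02 to 1.44, lies above the controls, and every Hsd3b5 to Hsd3b3 ratio, from -2.94 to -0.34, lies below them.

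Hsd11b1 encodes 11-beta-hydroxysteroid dehydrogenase type 1, which in liver reduces inactive 11-dehydrocorticosterone to corticosterone with NADPH that H6pd supplies in the endoplasmic reticulum. It spans chr1:193221634-193264075 on the minus strand and overlaps Lamb3 and 4930570N18Rik on the opposite strand, but none of its 50-base windows occurred in another gene's transcript. Its lowest, median and highest values were 135, 148 and 166 RPKM in controls, 111, 126 and 139 RPKM at 1 g/L, 54.2, 68.8 and 91.8 RPKM at 2 g/L, and 69.8, 84.0 and 107 RPKM at 3.5 g/L. All libraries at 2 and 3.5 g/L were below all controls. The log2 fold was -1.09 ± 0.12 at 2 g/L (adjusted p = 1.1e-07) and -0.82 ± 0.12 at 3.5 g/L (adjusted p = 3.0e-06), and -1.10 at 2 g/L with the title tag in the fit (adjusted p = 0.0027). At 1 g/L it was -0.27 ± 0.12 and missed the threshold (adjusted p = 0.13), though it passed with only those doses in the fit (adjusted p = 0.039). Relative to 2 g/L, the 3.5 g/L log2 fold was 0.27 (adjusted p = 0.14), and 0.35 without 2 g/L replicate 78 (adjusted p = 0.045).

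Of 7 genes around glucocorticoid activation and its receptor, 0 rose and 1 fell at 1 g/L, 3 rose and 1 fell at 2 g/L, and 1 rose and 2 fell at 3.5 g/L. Of all tested genes 8.35% rose and 3.03% fell at 1 g/L, 41.9% and 10% at 2 g/L, and 38.6% and 12.9% at 3.5 g/L. The 3 of 7 that rose at 2 g/L are 42.9%, near the share of all genes. H6pd averaged 79.1 RPKM at 2 g/L and 65.4 RPKM in controls (log2 fold 0.26, adjusted p = 0.016). That call was lost with median-ratio scaling (0.085, adjusted p = 0.43), quantile normalization (0.075, adjusted p = 0.51), the tag in the fit (0.12, adjusted p = 0.64) and without 2 g/L replicate 77 (0.20, adjusted p = 0.0503). The H6pd log2 fold at 3.5 g/L was 0.06 (adjusted p = 0.61), or -0.09 with median-ratio scaling. Fkbp5, a receptor co-chaperone that glucocorticoids induce, fell to 3.32 RPKM at 1 g/L, 4.36 RPKM at 2 g/L and 4.98 RPKM at 3.5 g/L, against 8.02 RPKM in controls (log2 folds -1.08, -0.75 and -0.59, adjusted p = 2.0e-05, 6.2e-05 and 6.6e-04). Its estimate was farthest from control at 1 g/L, where the log2 fold of Hsd11b1 was -0.27 (limma, adjusted p = 0.13). A link between Fkbp5 and Hsd11b1 was not tested. Nr3c2, the mineralocorticoid receptor, rose to 3.39 RPKM at 2 g/L and 3.27 RPKM at 3.5 g/L, against 1.95 RPKM in controls (log2 folds 0.58 and 0.52, adjusted p = 9.0e-06 and 2.1e-05). Hsd11b2, which inactivates glucocorticoids in kidney, was at most 0.107 RPKM in these livers and was not tested.

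Hsd17b2 oxidises estradiol to estrone and testosterone to androstenedione, and it rose at 1 and 2 g/L and missed the threshold at 3.5 g/L. It lies at chr8:117701904-117759027 on the plus strand. Its lowest, median and highest values were 59.5, 70.5 and 79.8 RPKM in controls, 85.1, 101 and 113 RPKM at 1 g/L, 71.0, 94.0 and 106 RPKM at 2 g/L, and 43.4, 60.9 and 73.1 RPKM at 3.5 g/L. All 1 g/L libraries were above all controls, and the other doses overlapped them. The log2 fold was 0.52 ± 0.11 at 1 g/L (adjusted p = 0.0057) and 0.39 ± 0.11 at 2 g/L (adjusted p = 0.0065). Within tag L1 the 1 g/L value was 0.55 (adjusted p = 0.069). The 2 g/L call was lost with median-ratio scaling (0.22, adjusted p = 0.10), quantile normalization (0.23, adjusted p = 0.065) and the tag in the fit (0.45, adjusted p = 0.091). At 3.5 g/L the log2 fold was -0.24 ± 0.11 (adjusted p = 0.088), and it passed as a fall with median-ratio scaling (-0.38, adjusted p = 0.0047), quantile normalization (-0.38, adjusted p = 0.0034) and without 3.5 g/L replicate 97 (-0.30, adjusted p = 0.037) or 99 (-0.29, adjusted p = 0.045). Relative to 2 g/L, Hsd17b2 fell at 3.5 g/L by 0.62 on the log2 scale (adjusted p = 0.0012).

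Hsd17b6, a retinol dehydrogenase-like enzyme that oxidises androgens, passed no comparison. Its medians were 33.8 RPKM in controls, 36.6 RPKM at 1 g/L, 31.5 RPKM at 2 g/L and 40.4 RPKM at 3.5 g/L, and the ranges of all doses overlapped. Log2 folds against control were 0.10 ± 0.12, -0.20 ± 0.12 and 0.16 ± 0.12 at 1, 2 and 3.5 g/L (adjusted p = 0.63, 0.19 and 0.29). The 2 g/L value passed with median-ratio scaling (-0.37, adjusted p = 0.011) and quantile normalization (-0.36, adjusted p = 0.011), and the 3.5 g/L value without control replicate 6 (0.28, adjusted p = 0.036), a library at 53.5 RPKM where the other controls had 29.9 to 36.6 RPKM. With the tag in the fit the 2 g/L value missed (-0.45, adjusted p = 0.19). Between 2 and 1 g/L the log2 fold was -0.30 (adjusted p = 0.074) and between 3.5 and 2 g/L 0.36 (adjusted p = 0.068), and both passed with either scaling and without control replicate 6. Hsd17b6 spans chr10:127990936-128007611 on the minus strand, and 13.5% of its windows also occurred in Rdh1, so reads of these genes can be split.

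Hsd17b11 and Hsd17b13 are neighbours on the minus strand of chromosome 5, at chr5:103989762-104021919 and chr5:103955440-103977410, with 12.4 kb between them. Both encode short-chain dehydrogenases that sit on lipid droplets: Hsd17b11 is known in mouse as a gene that agonists of the fatty acid receptor PPAR alpha induce, and Hsd17b13 is a hepatocyte protein with retinol dehydrogenase activity. Their promoters are shown because both genes rose and by unequal amounts. They are RefSeq sequences of GRCm38.p6 on the minus strand, at chr5:104021747-104022046 for Hsd17b11 and chr5:103977339-103977638 for Hsd17b13, and capitals mark CCAAT or AGGTCA, the hexamer that nuclear receptors bind, on either strand.
Hsd17b11 promoter: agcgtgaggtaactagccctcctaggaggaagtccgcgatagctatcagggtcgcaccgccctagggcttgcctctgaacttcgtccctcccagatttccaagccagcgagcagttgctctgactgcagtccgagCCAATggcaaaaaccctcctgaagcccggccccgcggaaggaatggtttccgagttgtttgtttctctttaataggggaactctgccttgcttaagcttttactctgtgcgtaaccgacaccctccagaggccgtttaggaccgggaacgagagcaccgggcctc
Hsd17b13 promoter: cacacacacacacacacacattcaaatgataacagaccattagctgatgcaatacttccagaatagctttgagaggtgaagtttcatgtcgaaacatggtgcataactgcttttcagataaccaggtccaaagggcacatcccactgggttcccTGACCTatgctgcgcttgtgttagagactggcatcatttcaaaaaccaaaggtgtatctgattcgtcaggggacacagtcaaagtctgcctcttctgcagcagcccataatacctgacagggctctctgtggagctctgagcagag
The best local alignment of the 2 windows covered 34 bases. Hsd17b11 holds CCAAT 115 bases before the start, and Hsd17b13 holds AGGTCA 96 bases before the start, a motif found in 16.3% of all promoters. The direct repeat AGGTCANAGGTCA, the form bound by PPAR alpha, was searched on both strands. It had no exact match in the promoters of the 9 genes with one in the table, nor a match with up to 2 mismatches, and 0.0396% and 3.86% of all promoters held one. The glucocorticoid receptor core ACANNNTGT (6.85% of all promoters) and the STAT5 core TTCNNNGAA (8.30%) had no match in them either. CCAAT also occurred in the promoters of Hsd11b1, Hsd17b6, Hsd17b10 and Hsd17b12.

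Hsd17b11 rose the most of the 10 genes. Its lowest, median and highest values were 15.7, 21.8 and 25.3 RPKM in controls, 20.1, 21.2 and 23.99 RPKM at 1 g/L, 32.9, 61.9 and 82.2 RPKM at 2 g/L, and 62.7, 74.3 and 96.1 RPKM at 3.5 g/L. The 1 g/L libraries fell inside the range of the controls, and every library at the higher doses was above it. The mean was 60.2 ± 18.9 RPKM at 2 g/L and 76.4 ± 12.7 RPKM at 3.5 g/L, against 21.4 ± 3.21 RPKM in controls. These are log2 folds of 1.40 ± 0.16 (adjusted p = 3.0e-07) and 1.79 ± 0.16 (adjusted p = 3.6e-09), and with the tag in the fit the 2 g/L value was 1.23 (adjusted p = 0.012). At 1 g/L the log2 fold was 0.03 ± 0.16 (adjusted p = 0.93), and 3.5 g/L against 2 g/L gave 0.39 ± 0.16 (adjusted p = 0.13). The step lay between 1 and 2 g/L, with a log2 fold of 1.37 ± 0.16 (adjusted p = 2.1e-06) and 1.29 within tag L2 (adjusted p = 0.015).

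Hsd17b13 had 27.3, 30.7 and 33.3 RPKM (lowest, median, highest) in controls, 30.5, 35.8 and 40.3 RPKM at 1 g/L, 40.9, 49.2 and 54.3 RPKM at 2 g/L, and 23.2, 55.7 and 67.1 RPKM at 3.5 g/L. All 2 g/L libraries and 5 of 6 at 3.5 g/L were above all controls, and 3.5 g/L replicate 101, at 23.2 RPKM, was below them. The log2 fold was 0.64 ± 0.16 at 2 g/L (adjusted p = 0.0022) and 0.72 ± 0.16 at 3.5 g/L (adjusted p = 7.0e-04), and the 3.5 g/L value without replicate 101 was 0.94 ± 0.08 (adjusted p = 4.6e-09). That library was the lowest of its dose for Hsd17b11 too, but at 62.7 RPKM it stayed above the controls. Without it Hsd17b13 also rose at 3.5 g/L relative to 2 g/L (0.30, adjusted p = 0.026), where all libraries gave 0.08 (adjusted p = 0.79). Relative to 1 g/L it rose at 2 g/L by 0.43 (adjusted p = 0.047), a call lost with no filter, with either other scaling, within tag L2 (0.35, adjusted p = 0.054) and without each of 17 libraries, that is all but control replicate 3, 1 g/L replicate 54, 2 g/L replicates 76 and 78 and 3.5 g/L replicates 97, 99 and 101.

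Hsd17b11 rose more than its neighbour. The log2 ratio of Hsd17b11 to Hsd17b13 was 0.26 ± 0.34 at 2 g/L and -0.53 ± 0.24 in controls, a difference of 0.79 (two-sided exact permutation p = 0.0043, adjusted p = 0.0087). At 3.5 g/L the ratio was 0.57 ± 0.47, a difference of 1.10 (exact permutation p = 0.0022, adjusted p = 0.0065). At 1 g/L it was -0.71 ± 0.08, a difference of -0.18 (exact permutation p = 0.11, adjusted p = 0.11), which passed without control replicate 8 (-0.27, adjusted p = 0.0078). In controls Hsd17b13 had the higher RPKM of the pair in 6 of 6 libraries, and at 3.5 g/L Hsd17b11 did in 6 of 6.

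Of 15 tested genes for other lipid droplet proteins, 1 rose at 1 g/L, 9 rose and 1 fell at 2 g/L, and 9 rose and 1 fell at 3.5 g/L. At 2 and at 3.5 g/L that is 60% up and 6.67% down. All tested genes gave 8.35% up at 1 g/L, 41.9% up and 10% down at 2 g/L, and 38.6% up and 12.9% down at 3.5 g/L. G0s2, an inhibitor of triglyceride lipase, rose to 83.1 RPKM at 3.5 g/L, against 25.6 RPKM in controls (log2 fold 1.78, adjusted p = 4.1e-04). Mgll, which cleaves monoglycerides, rose to 33.5 RPKM at 2 g/L and 37.1 RPKM at 3.5 g/L, against 12.5 RPKM in controls (log2 folds 1.32 and 1.47). The list's median log2 fold was 0.34 at 2 g/L and 0.66 at 3.5 g/L.

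Beside these genes, 34 of 36 tested PPAR alpha target genes rose at 2 g/L and 36 of 36 at 3.5 g/L, while 1 rose and 2 fell at 1 g/L. Of 38 list genes with values, 36 passed the filter. It can admit a gene low in controls through its treated libraries alone, so the rise of such a gene partly follows from the filter. How many of the 36 are such genes was not counted. The share of all tested genes that rose was 41.9% at 2 g/L and 38.6% at 3.5 g/L, while 8.35% rose and 3.03% fell at 1 g/L. None of the 10 hydroxysteroid dehydrogenases is on the PPAR alpha list. The list's mean log2 level relative to the control mean was 1.01 in 2 g/L replicate 78, the lowest of its dose, where the other 2 g/L libraries had 1.73 to 2.41. The same library had the lowest Hsd17b11 of its dose, 32.9 RPKM, and the lowest Hsd17b13, 40.9 RPKM. It was also the lowest of its dose for Hsd3b3, Hsd17b10 and Hsd17b12, and the highest for Hsd11b1. The list's level at 3.5 g/L ran from 1.97 to 2.67, and the library at 2.67, replicate 97, had the highest Hsd17b11, 96.1 RPKM, and the highest Hsd17b13, 67.1 RPKM. Replicate 97 was also the highest of its dose for Hsd17b2, Hsd17b10 and Hsd17b12, and the lowest for Hsd11b1. A link between the list level and these genes was not tested. The library at 1.97, replicate 98, had 68.5 RPKM of Hsd17b11, above replicate 101 at a list level of 2.21 (62.7 RPKM) and replicate 99 at 2.51 (66.9 RPKM).

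**Figure D4:**
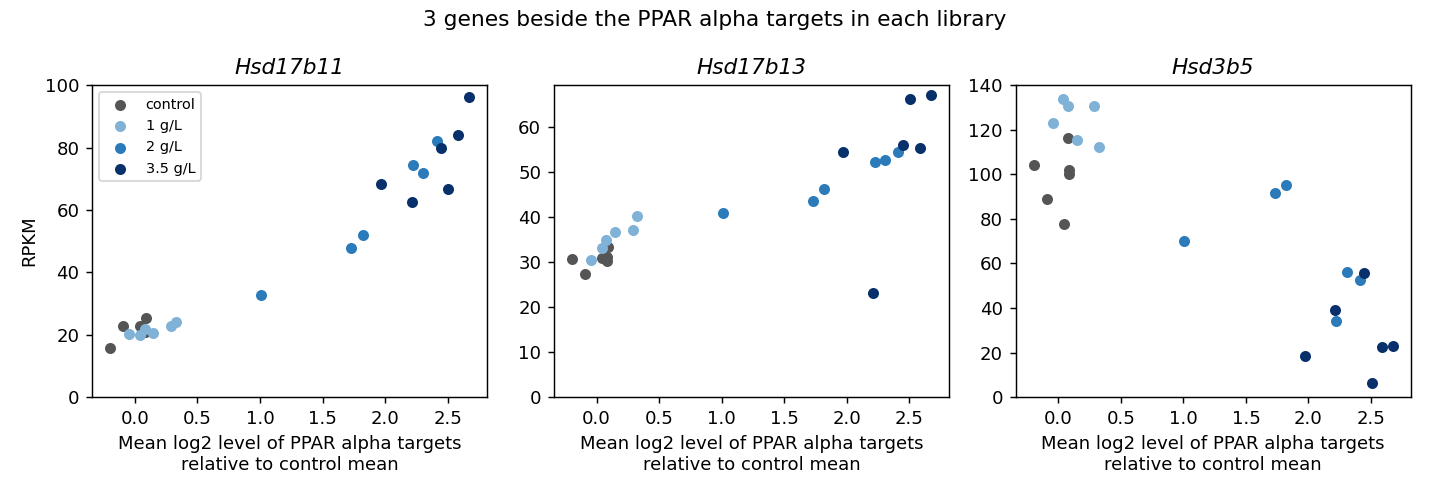
RPKM of Hsd17b11, Hsd17b13 and Hsd3b5 in every library (points, coloured by dose) against the mean log2 level of 36 PPAR alpha target genes relative to the control mean. At 2 g/L the library with the lowest list level, 1.01, has the lowest Hsd17b11, 32.9 RPKM, and 1 library at 3.5 g/L stands below the rest for Hsd17b13, at 23.2 RPKM.

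Hsd17b12 encodes the 3-ketoacyl-CoA reductase that carries out the second step of each cycle of very-long-chain fatty acid elongation. It spans chr2:94032689-94157964 on the minus strand. Its lowest, median and highest values were 31.0, 33.9 and 41.2 RPKM in controls, 31.8, 42.1 and 45.6 RPKM at 1 g/L, 44.9, 57.8 and 63.3 RPKM at 2 g/L, and 36.7, 44.8 and 53.3 RPKM at 3.5 g/L. It was highest at 2 g/L, where all libraries were above all controls, and at 3.5 g/L the ranges overlapped. The log2 fold was 0.67 ± 0.10 at 2 g/L (adjusted p = 1.1e-05) and 0.33 ± 0.10 at 3.5 g/L (adjusted p = 0.0082). With the tag in the fit the 2 g/L value was 0.45 (adjusted p = 0.074), and the 3.5 g/L call was lost with median-ratio scaling (0.19, adjusted p = 0.094) and quantile normalization (0.16, adjusted p = 0.14). Relative to 2 g/L it fell at 3.5 g/L by 0.34 on the log2 scale (adjusted p = 0.035), a call lost with no filter (adjusted p = 0.063), with only those doses in the fit (adjusted p = 0.069), and without each of 7 libraries, 2 g/L replicates 73, 74, 75 and 76 and 3.5 g/L replicates 98, 101 and 102 (log2 folds -0.34 to -0.29, adjusted p = 0.061 to 0.093). Its rise at 2 g/L relative to 1 g/L, 0.44 (adjusted p = 0.0023), was 0.33 within tag L2 (adjusted p = 0.081). At 1 g/L the log2 fold was 0.23 ± 0.10 (adjusted p = 0.14), and without 1 g/L replicate 49, at 31.8 RPKM, it was 0.30 (adjusted p = 0.044).

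Of 13 tested genes of fatty acid synthesis and elongation, 0 rose and 1 fell at 1 g/L, 7 rose and 1 fell at 2 g/L, and 8 rose and 1 fell at 3.5 g/L. The risers are 53.8% at 2 g/L and 61.5% at 3.5 g/L, beside 41.9% and 38.6% of all tested genes. The share that fell was 7.69% at either dose, beside 10% and 12.9%. Elovl6, which extends palmitate, rose to 27.1 RPKM at 3.5 g/L, against 5.57 RPKM in controls (log2 fold 2.13, and 1.22 at 2 g/L). Elovl5, which extends polyunsaturated acids, rose to 202 RPKM at 2 g/L and 188 RPKM at 3.5 g/L, against 77.8 RPKM in controls (log2 folds 1.38 and 1.26). Elovl3, an elongase that is higher in male than female mouse liver, fell to 70.3 RPKM at 2 g/L and 34.7 RPKM at 3.5 g/L, against 215 RPKM in controls (log2 folds -1.66 and -2.69).

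Hsd17b10 encodes a mitochondrial enzyme that oxidises 2-methyl-3-hydroxybutyryl-CoA in isoleucine breakdown and is also a subunit of mitochondrial RNase P. It lies at chrX:152001845-152004442 on the plus strand. Its lowest, median and highest values were 29.0, 35.4 and 40.4 RPKM in controls, 35.9, 43.1 and 49.7 RPKM at 1 g/L, 46.5, 56.2 and 60.8 RPKM at 2 g/L, and 49.4, 51.1 and 61.9 RPKM at 3.5 g/L. All libraries at 2 and 3.5 g/L were above all controls. The log2 fold was 0.65 ± 0.09 at 2 g/L (adjusted p = 2.4e-06) and 0.58 ± 0.09 at 3.5 g/L (adjusted p = 6.3e-06), and with the tag in the fit the 2 g/L value was 0.75 (adjusted p = 0.0061). The rise at 1 g/L, 0.29 ± 0.09 (adjusted p = 0.036), was the less stable: within tag L1 it was 0.34 (adjusted p = 0.20), and it missed the threshold with median-ratio scaling (0.21, adjusted p = 0.087), with no filter (adjusted p = 0.059), with only those doses in the fit (adjusted p = 0.069) and without each of 7 libraries, control replicates 3, 4, 6 and 8 and 1 g/L replicates 50, 51 and 52 (log2 folds 0.23 to 0.29, adjusted p = 0.051 to 0.098).

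Of 20 genes of isoleucine and short-chain acyl-CoA breakdown, 0 rose and 1 fell at 1 g/L, 12 rose and 5 fell at 2 g/L, and 12 rose and 4 fell at 3.5 g/L. That is 60% up and 25% down at 2 g/L, beside 41.9% and 10% of all tested genes. At 3.5 g/L it is 60% up and 20% down, beside 38.6% and 12.9%. Acat1, the mitochondrial thiolase that follows Hsd17b10 in the isoleucine pathway, rose to 59.7 RPKM at 2 g/L and 62.4 RPKM at 3.5 g/L, against 41.5 RPKM in controls (log2 folds 0.52 and 0.57). Hadh, the short-chain 3-hydroxyacyl-CoA dehydrogenase of beta-oxidation, rose to 82.7 RPKM at 2 g/L and 90.3 RPKM at 3.5 g/L, against 48.2 RPKM in controls (log2 folds 0.77 and 0.90).

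Among the other hydroxysteroid dehydrogenase genes of the table, 6 were tested and 7 were not. Hsd17b4, the D-bifunctional enzyme of peroxisomal beta-oxidation, rose to 113 RPKM at 2 g/L and 110 RPKM at 3.5 g/L, against 62.4 RPKM in controls (log2 folds 0.82 and 0.79, adjusted p = 4.3e-06 and 5.0e-06). Hsdl2, a hydroxysteroid dehydrogenase-like protein, rose to 31.0 RPKM at 2 g/L and 37.0 RPKM at 3.5 g/L, against 8.93 RPKM in controls (log2 folds 1.62 and 1.90, adjusted p = 1.2e-07 and 4.5e-09). Hsd17b7, the 3-ketosteroid reductase of cholesterol synthesis, rose to 10.5 RPKM at 2 g/L and 12.1 RPKM at 3.5 g/L, against 7.27 RPKM in controls (log2 folds 0.47 and 0.67, adjusted p = 7.9e-04 and 1.5e-05). H2-Ke6, also named Hsd17b8 and part of mitochondrial fatty acid synthesis, fell to 10.8 RPKM at 2 g/L and 11.8 RPKM at 3.5 g/L, against 14.2 RPKM in controls (log2 folds -0.37 and -0.25, adjusted p = 8.3e-05 and 0.0032). Hsd3b7, an enzyme of bile acid synthesis, fell at 3.5 g/L to 92.7 RPKM, against 109 RPKM in controls (log2 fold -0.23, adjusted p = 0.0067), and Hsdl1 passed at no dose. The untested Hsd3b1, Hsd3b4, Hsd3b6, Hsd11b2, Hsd17b1, Hsd17b3 and Hsd17b14 stayed at or below 0.253 RPKM in every library.

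Of 22 other steroid and retinoid converting enzymes tested, 2 rose at 1 g/L, 7 rose and 3 fell at 2 g/L, and 9 rose and 4 fell at 3.5 g/L. Those that rose are 9.09%, 31.8% and 40.9% at 1, 2 and 3.5 g/L, beside 8.35%, 41.9% and 38.6% of all tested genes. The falls are 13.6% at 2 g/L and 18.2% at 3.5 g/L, beside 10% and 12.9% of all tested genes. Aldh1a1, which makes retinoic acid, rose to 465 RPKM at 2 g/L and 423 RPKM at 3.5 g/L, against 190 RPKM in controls (log2 folds 1.22 and 1.13). Cyp7b1, an oxysterol 7-alpha-hydroxylase higher in male than female mouse liver, fell at 3.5 g/L to 24.9 RPKM, against 106 RPKM in controls (log2 fold -2.09, adjusted p = 4.9e-08). Hsd3b5 is a gene of that male-biased kind, and of 22 other male-biased liver genes tested 2 rose and 9 fell at 2 g/L and 2 rose and 12 fell at 3.5 g/L. That is 9.09% up at either dose, and 40.9% down at 2 g/L and 54.5% at 3.5 g/L. C8b, a complement component, fell to 67.6 RPKM at 2 g/L and 42.3 RPKM at 3.5 g/L, against 145 RPKM in controls (log2 folds -1.10 and -1.76). Of 23 female-biased liver genes with values, 13 were tested. Of these 4 rose and 5 fell at 2 g/L (30.8% and 38.5%), and 6 rose and 5 fell at 3.5 g/L (46.2% and 38.5%). The filter admits a gene low in controls if 6 libraries at other doses reach 0.5 RPKM, so its rise partly follows from the filter. Cyp2a4, at 0.277 to 0.530 RPKM in controls and 22.9 to 92.8 RPKM at 3.5 g/L, is such a gene. Cyp2b9, a cytochrome P450, rose to 6.73 RPKM at 2 g/L and 47.4 RPKM at 3.5 g/L, against 0.698 RPKM in controls (log2 folds 2.01 and 4.53 of RPKM + 1). The lists share genes, so their counts are not separate results. Cyp4a14, at 1123 RPKM at 3.5 g/L and 0.925 RPKM in controls, is both a female-biased gene and a PPAR alpha target. Cyp7b1 and Elovl3 are also counted among the male-biased genes.

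**Figure D5:**
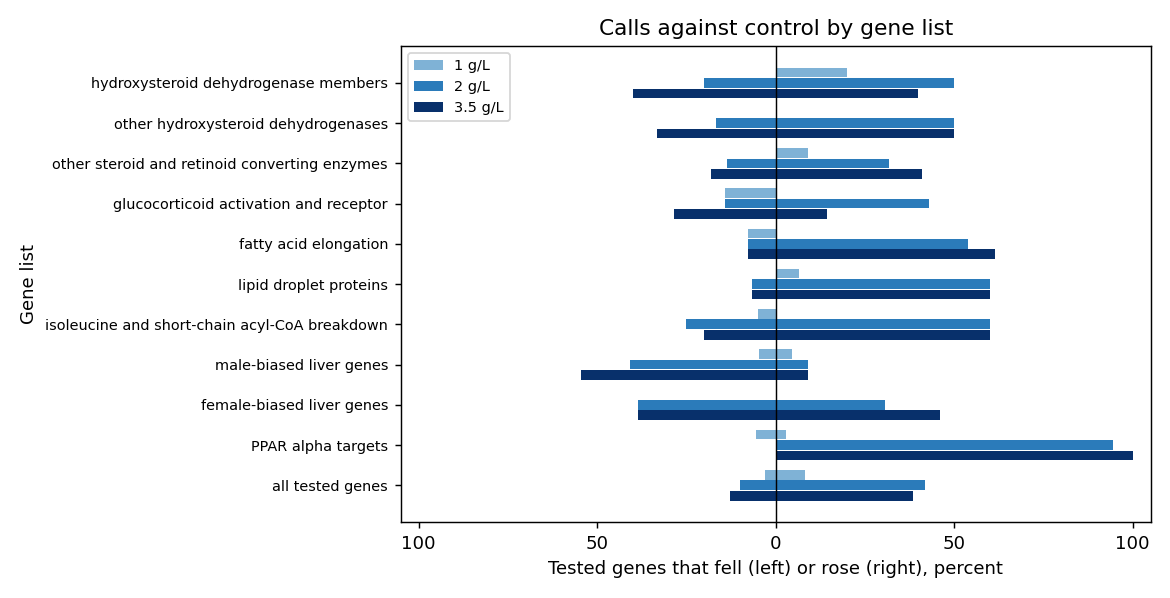
Percent of tested genes that fell (bars to the left) or rose (bars to the right) against control, by gene list and DCA dose, with all 6540 tested genes in the bottom row. At 3.5 g/L 100% of the tested PPAR alpha targets rose, and of the 10 hydroxysteroid dehydrogenases 40% rose and 40% fell. The filter can admit genes low in controls through their treated libraries alone.

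The genes nearest to the 3 most changed members were sought over the 4 dose means of log2(RPKM + 1), each centred on its own mean, by Euclidean distance among the tested genes. Because the same libraries served for the choice, the folds and adjusted p-values of these genes follow from it and are not separate results. Nearest to Hsd3b5 were Cyp7b1 (distance 0.23), Gbp11 (0.44) and Mup7 (0.44). Gbp11 had a log2 fold of -0.64 at 2 g/L (adjusted p = 0.057) and -1.53 at 3.5 g/L (adjusted p = 7.0e-05), and Mup7, a major urinary protein gene with many near-identical copies, -0.06 (adjusted p = 0.93) and -1.61 (adjusted p = 0.0059). Nearest to Hsd17b11 were Cd36 (0.15), a fatty acid transporter, Hsdl2 (0.17) and Eci2 (0.20), an enoyl-CoA isomerase, and Cd36 had log2 folds of 1.47 at 2 g/L and 1.83 at 3.5 g/L (adjusted p = 1.8e-04 and 1.2e-05). Nearest to Hsd11b1 were 3 cytochrome P450 genes of the Cyp2c family, Cyp2c50 (0.10), Cyp2c54 (0.12) and Cyp2c37 (0.14). Cyp2c50 had log2 folds of -1.03 at 2 g/L and -0.75 at 3.5 g/L (adjusted p = 2.7e-04 and 0.0043).

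Within doses, the deviations of the genes from their dose means were compared over the 24 libraries for all 45 pairs, by permuting libraries within dose. By Pearson's r 8 pairs passed after Benjamini-Hochberg adjustment, 7 positive and 1 negative, and by Spearman's rho 1 pair passed. That pair was Hsd17b12 and Hsd17b13, with r = 0.62 (permutation p = 7.0e-05, adjusted p = 0.0031) and rho = 0.73 (permutation p = 5.0e-05, adjusted p = 0.0022). Without the 2 libraries farthest out on Hsd17b12, 1 g/L replicate 49 and 2 g/L replicate 78, r was 0.61. The library far out on Hsd17b13, 3.5 g/L replicate 101, stayed in, so this value cannot show how much r rests on it. For the neighbours Hsd17b11 and Hsd17b13 r was 0.47 (adjusted p = 0.029) and rho 0.62 (adjusted p = 0.061), and for Hsd3b3 and Hsd3b5, whose transcripts share windows with other genes, r was 0.63 (adjusted p = 0.044) and rho 0.59 (adjusted p = 0.077). Libraries of 1 dose also share a title tag, except at 1 g/L with 3 L1 and 3 L2, and their relative depth was not taken into account.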

How the data were processed

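Total RNA was depleted of ribosomal RNA, made into stranded libraries and sequenced on an Illumina HiSeq, per the labels' protocols. The authors deposited 1 table of RPKM per gene symbol for all 24 libraries, and CASAVA, STAR 2.4 and Partek appear in the submitters' processing notes with the build mm10. The counting method, its annotation and its use of strand are not given in the sources used here. The table had 15596 lines below its header. Of these 1 incomplete line and 13 lines whose symbol had become a date were dropped, and values of 0.0001 were read as 0. Symbols later in the alphabet than those starting with Olfr were not analysed here, so counts over all genes and the gene lists include none of them. Samples were grouped by the labelled dose.

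Log2(RPKM + 1) was tested with limma 3.58.1 in R 4.3.3, with a mean per dose, a trended prior and no covariate, over genes with 0.5 RPKM in at least 6 libraries. Tests were two-sided, adjusted by Benjamini-Hochberg over 6540 genes per comparison, and called below 0.05. A fold on this scale understates the change of low genes. The fit was tested on simulated data. Ratios used exact permutation tests and correlations 100000 permutations. RPKM keeps no read counts, so depth was read only from the steps between low values, as a median over 1725 genes with quartiles of 18300000 and 28600000 reads. By transcript length and level that comes to about 900 reads per library for Hsd3b2, the fewest, and 4400 for Hsd11b1. Coordinates and transcripts are from GENCODE M21 on GRCm38, promoters from RefSeq GRCm38.p6, with 9 of 10 genes matched by symbol. Named genes are the 10 genes, every other tested Hsd or Hsdl gene, up to 4 of each list with the largest called fold at 2 or 3.5 g/L, and the nearest genes by dose profile. The members and lists were chosen with earlier results of these data known. Alternatives were another pseudocount, other filters, median-ratio and quantile scaling, the title tag as a term or held fixed, only the doses compared, and leaving out each of 24 libraries.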

Additional observations from a re-analysis of the deposited data

Results flagged for a closer look

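In each dose group the gap between an end library and its nearest neighbour was set against the group's range, for the 10 genes and the 2 ratios, 48 groups in all. Chance sets apart about 1 in 20 groups, and 5 libraries stood out. Hsd17b13 was at 23.2 RPKM in 3.5 g/L replicate 101, where the other 3.5 g/L libraries had 54.3 to 67.1 RPKM. Hsd17b6 was at 53.5 RPKM in control replicate 6, where the other controls had 29.9 to 36.6 RPKM. Hsd17b10 was at 61.9 RPKM in 3.5 g/L replicate 97, where the others had 49.4 to 53.6 RPKM. Hsd17b12 was at 31.8 RPKM in 1 g/L replicate 49, where the others had 40.5 to 45.6 RPKM. The log2 ratio of Hsd3b5 to Hsd3b3 was -2.94 in 3.5 g/L replicate 99, where the others had -1.31 to -0.34.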

How the results depend on the processing

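Of the 10 genes' log2 folds and slopes under the alternatives other than leaving out a library, 353 of 410 kept their direction and their side of the threshold, 31 lost the call, 16 gained one and 10 turned. With no filter or with median-ratio scaling, 1 of the 10 genes was called at 1 g/L. With the title tag as a term and no 3.5 g/L libraries, 1 gene was called at 1 g/L and 3 for the slope over dose, where all libraries gave 8, and over all genes 92 were called at 1 g/L, 861 at 2 g/L, 824 for 2 against 1 g/L and 733 for the slope. Within tag L1, 0 of the 10 genes and 50 of all genes were called at 1 g/L. Within tag L2, 4 and 578 were called for 2 against 1 g/L, where all libraries gave 8 and 1855. With only those doses in the fit, 1 and 446 were called for 3.5 against 2 g/L, where all gave 3 and 675. These tag and dose fits hold fewer libraries. Each value that turned missed the threshold after the turn and with all libraries. The Hsd17b11 log2 fold at 1 g/L was -0.043 with median-ratio scaling, -0.014 with quantile normalization and -0.058 with either tag fit, and Hsd17b6 at 1 g/L was -0.023 with either tag fit. The slope over dose of Hsd17b6 was -0.019 with median-ratio scaling, -0.024 with quantile normalization and -0.22 with the tag, and that of Hsd17b2 was 0.22 with the tag but passed as a fall of -0.14 with either scaling. Log2 folds at 3.5 g/L were -0.094 and -0.14 for Cyp39a1 and -0.091 and -0.078 for H6pd with median-ratio and quantile scaling, Hsd17b4 at 1 g/L was -0.013 with median-ratio scaling, and Mup7 at 2 g/L was 0.27 with the tag. With the tag, the 2 g/L calls of Hsd17b7, H2-Ke6, H6pd, Cyp2b9, Cd36, Cyp2c50 and Cyp2c54 were lost. The cause of these shifts was not tested.

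Leaving out each library in turn, 1 to 3 of the 10 genes were called at 1 g/L and 5 to 8 for 2 against 1 g/L, and 458 to 970 of all genes at 1 g/L. The members' counts fell to 1 at 1 g/L without control replicate 3, 4, 6 or 8 or 1 g/L replicate 50, 51 or 52, and to 5 for 2 against 1 g/L without 2 g/L replicate 74. The count of all genes fell by over 1.5 times without control replicate 3 (458) or 1 g/L replicate 52 (475) or 54 (481). The Hsd17b11 to Hsd17b13 difference at 1 g/L ran from -0.27 to -0.13, and that of Hsd3b5 to Hsd3b3 from 0.13 to 0.29 at 1 g/L and -0.53 to -0.31 at 2 g/L, and each passed in at least 1 of these fits. Log2 folds that were never called ran from -0.054 to 0.076 for Hsd17b11 at 1 g/L, from -0.070 to 0.017, -0.086 to 0.00070 and -0.062 to 0.026 for Hsdl1 at 1, 2 and 3.5 g/L, from -0.11 to 0.16 for Cyp39a1 at 3.5 g/L and from -0.27 to 0.19 for Mup7 at 2 g/L. The calls of Hsd11b1, Hsd17b11 and Hsd17b10 at 2 and 3.5 g/L and of Hsd3b5 at 3.5 g/L passed in every fit run, as did Hsd17b13 at both doses. No fit could take the title tag into account at 3.5 g/L, so the calls at that dose met no tag setting. No paired analysis was possible because the doses share no replicate numbers. About 25000000 reads per library limit genes near the floor, such as the untested family members, more than the 10 genes. A miss of the threshold does not show that a level was the same.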
